A study of Mus musculus with 36 samples.

Results

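The genes described here are 10 genes of de novo lipogenesis, the making of fatty acids from carbohydrate: Srebf1, Mlxipl, Acly, Acaca, Fasn, Me1, Thrsp, Elovl6, Scd1 and Pnpla3. They were chosen by symbol, and each symbol matched a single Ensembl gene among the 78239 genes in the deposited counts, of which 47683 had a count above 0 in at least 1 library. All 10 genes passed the filter on low counts in liver, kidney and heart, so none was lost from the tests.

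In the liver, citrate that leaves the mitochondria is split by Acly into acetyl-CoA, which Acaca carboxylates to malonyl-CoA and Fasn condenses into palmitate with NADPH that Me1 helps to supply. Elovl6 lengthens palmitate to stearate, Scd1 puts a double bond into the chain, and the products go into triglycerides and phospholipids. Srebf1, which encodes SREBP-1, and Mlxipl, which encodes ChREBP, are the transcription factors best known for switching these enzymes on after insulin and glucose, respectively. Thrsp (Spot 14) is a small protein of lipogenic tissues that follows the same nutritional signals, and Pnpla3 encodes a lipid droplet protein that is induced by feeding.

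The animals were male wild-type C57BL/6NCrl mice bought at 6 weeks of age, kept on standard chow with free access to food, and killed at 8, 10 or 12 weeks after ketamine and xylazine anaesthesia. No treatment or allele separated the groups, which are labelled by age and tissue. Because all mice were bought at the same age, time since arrival rose together with age, and these cannot be told apart. Poly(A) RNA of whole liver, kidney and heart pieces was sequenced, with 4 libraries for each of the 9 tissue and age groups and 36 in all. The time of day and the hours since the last meal are not given in the sources used here.

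Between 21031599 and 33637390 read pairs per library were counted on genes. Levels are given as CPM, counts scaled to a common library size with TMM factors over all 36 libraries, and levels of different genes are compared only per kb of the canonical transcript. The labelled tissues matched their defining markers. Hepatocyte markers (Alb, Apoa1, Ttr, Serpina1a and Fgb) summed to 88740 to 155500 CPM in liver, cardiomyocyte markers to 41300 to 56350 CPM in heart, and kidney epithelium markers to 7476 to 8766 CPM in kidney. Because whole pieces of tissue were used, fewer cells of a type and less RNA per cell cannot be told apart in any difference below.

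Of the 10 genes, 4 lie on mouse chromosome 11 of the GRCm39 build. These are Srebf1 (chr11:60089913-60113407, minus strand), Acaca (chr11:84020476-84292477, plus strand), Acly (chr11:100367165-100440756, minus strand) and Fasn (chr11:120696672-120715995, minus strand). The others are Elovl6 (chr3:129326004-129432144, plus strand), Mlxipl (chr5:135118744-135168615, plus strand), Thrsp (chr7:97062139-97066937, minus strand), Me1 (chr9:86462646-86578104, minus strand), Pnpla3 (chr15:84051943-84073723, plus strand) and Scd1 (chr19:44382894-44399154, minus strand). The counting takes no account of strand and drops pairs that touch more than 1 gene. This matters most for Me1, where 35.5% of the exon bases also lie in exons of Rwdd2a or A330041J22Rik on the other strand, so its level is understated. Scd1 has near copies in Scd2, Scd3 and Scd4, and pairs that matched several places were not counted.

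Promoter windows of 300 bases (250 before and 50 after the annotated start, RefSeq, GRCm38.p6) were found for 9 of the 10 genes, with 13 windows in all. SREBP-1 acts at many promoters next to NF-Y, which binds the CCAAT box, and Sp1, which binds GC boxes, and ChREBP binds pairs of E-boxes. The 120 bases before the start of Fasn, of Thrsp and of Mlxipl are shown as examples of windows that held matches. Mlxipl is the factor among them whose window held both an E-box and a GC box. Capitals mark CCAAT on either strand (ATTGG on the other) in Fasn and Thrsp, and the E-box CACGTG and the GC box GGGCGG in Mlxipl. The windows are chr11:120824548-120824667 (minus strand) for Fasn, chr7:97417551-97417670 (minus strand) for Thrsp and chr5:135089770-135089889 (plus strand) for Mlxipl.
Fasn: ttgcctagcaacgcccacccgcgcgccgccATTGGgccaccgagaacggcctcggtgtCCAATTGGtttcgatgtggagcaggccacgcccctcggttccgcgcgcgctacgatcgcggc
Thrsp: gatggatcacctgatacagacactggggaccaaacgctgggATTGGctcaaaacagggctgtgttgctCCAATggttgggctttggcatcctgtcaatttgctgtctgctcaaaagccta
Mlxipl: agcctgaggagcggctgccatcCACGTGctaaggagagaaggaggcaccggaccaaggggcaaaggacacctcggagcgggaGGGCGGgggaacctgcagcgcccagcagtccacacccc

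The Fasn window held 3 CCAAT matches, of which 2 overlap in the palindromic stretch, and the Thrsp window held 2. In all, 7 of the 9 genes had a CCAAT in at least 1 window, against 37.4% of the 32851 promoter windows of the mouse genome, and 5 had a GC box, against 35.7%. Genes with several windows had more chances of a match, so these shares are not directly comparable. The E-box CACGTG was found for Mlxipl alone and in 7.15% of all windows. A form of the sterol regulatory element, TCACNCCAC, was found in a second Mlxipl window and in 1.24% of all windows. The LXR element of paired half-sites with a spacer of 4 bases was in none of the windows and in 0.015% of all. The windows of Elovl6 and Acaca, which were also called higher in liver than in kidney and in heart, held no match to any of these motifs. Both strands were searched for each motif, and a match describes letters, not a site in use.

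The lipogenesis genes were liver genes with 2 exceptions, Me1 and Pnpla3. In liver against kidney, 8 of the 10 were called higher in liver (edgeR's quasi-likelihood test, adjusted p under 0.05 and a change of more than 1 on the log2 scale), where 17.2% of the 19716 genes tested were called higher in liver and 47.8% in either direction. In liver against heart, 9 of the 10 were called higher in liver, with a background of 26.5% higher and 55.3% in either direction. The 12 libraries of the tissues did not overlap for 8 genes in each of these comparisons, against 49.5% of all genes for kidney and 53% for heart. The median log2 difference of the 10 genes was 2.87 over kidney and 3.99 over heart, and that of all genes was -0.16 and 0.00. With library totals in place of TMM factors the medians of all genes became -0.93 and -0.22, and the members called were 8 over kidney, as before, and 8 over heart, where Me1 lost the call (0.85 on the log2 scale, main test 1.11).

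Scd1, the stearoyl-CoA desaturase, was the extreme case. Its liver level lay between 3643 and 18680 CPM with a median of 13130, against a median of 132 CPM in kidney and 14.6 CPM in heart. The log2 difference of liver over kidney was 6.24 ± 0.26 (SE, adjusted p = 1.96e-21) and of liver over heart 9.77 ± 0.30 (adjusted p = 1.99e-25). Per kb of transcript Scd1 was the highest of the 10 genes in liver, at a median of 2614 CPM per kb, and the fourth in kidney and the seventh in heart.

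Thrsp followed Scd1 in liver per kb, at 397 CPM per kb, and was higher in heart than in kidney. Its median was 507 CPM in liver, 3.90 CPM in kidney and 22.4 CPM in heart. It was the single gene of the 10 called lower in kidney than in heart, by a log2 difference of -2.29 ± 0.30 (adjusted p = 1.32e-08), a direction in which 21.9% of all genes were called. The kidney and heart libraries nevertheless met, since 1 kidney library reached 19.4 CPM and the lowest heart library held 15.7 CPM.

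Elovl6, the elongase of palmitate, was almost absent from heart. Heart libraries held 0.896 to 1.60 CPM, kidney libraries 22.1 to 36.4 CPM and liver libraries 107 to 654 CPM. The 3 ranges did not touch, and the log2 difference of liver over heart was 7.67 ± 0.25 (adjusted p = 5.56e-25). In heart Elovl6 was the lowest of the 10 genes per kb, at 0.193 CPM per kb.

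The enzymes that lead to palmitate kept one order, with liver above kidney and kidney above heart. Fasn, the fatty acid synthase, had medians of 872 CPM, 68.8 CPM and 31.5 CPM in liver, kidney and heart. Acaca, the first carboxylase, had medians of 197 CPM, 30.6 CPM and 13.1 CPM. Acly, the citrate lyase, had medians of 488 CPM, 137 CPM and 36.7 CPM. The log2 differences of liver over kidney were 3.25 ± 0.21 for Fasn (adjusted p = 3.88e-16), 2.57 ± 0.14 for Acaca (adjusted p = 5.36e-18) and 1.90 ± 0.12 for Acly (adjusted p = 2.05e-16). Kidney exceeded heart by 1.55 ± 0.20, 1.35 ± 0.14 and 1.92 ± 0.12 for the same genes, and each passed the test.

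Me1, the cytosolic malic enzyme that yields NADPH, was the one enzyme that was not highest in liver. Kidney libraries held 401 to 589 CPM, liver libraries 119 to 488 CPM and heart libraries 117 to 157 CPM. The log2 difference of liver over kidney was -0.70 ± 0.13 (adjusted p = 1.42e-05), past the adjusted p but short of the size required for a call. Per kb, Me1 was the highest of the 10 genes in kidney, at 118 CPM per kb, and in heart, at 32.9 CPM per kb, and the seventh in liver.

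The transcription factors differed from each other outside the liver. Srebf1 had medians of 372 CPM in liver, 28.4 CPM in kidney and 38.3 CPM in heart, and Mlxipl of 373 CPM, 111 CPM and 21.1 CPM. Mlxipl was called higher in kidney than in heart, by 2.47 ± 0.10 (adjusted p = 2.23e-22), one of 7 such members against a background of 30.8% higher and 52.6% in either direction. Srebf1 was on the other side, at -0.40 ± 0.11 (adjusted p = 0.00123), too small for a call, and with library totals its difference was 0.13. Kidney and heart libraries did not overlap for 7 of the 10 genes, against 57.6% of all genes.

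Pnpla3 was near the limit of detection. Its 36 libraries held between 0.0471 and 1.49 CPM, with medians of 0.586 CPM in liver, 0.414 CPM in kidney and 0.553 CPM in heart. It passed no comparison of tissues, with log2 differences of 0.29 ± 0.37 for liver over kidney (adjusted p = 0.480), 0.38 ± 0.39 for liver over heart (adjusted p = 0.378) and 0.09 ± 0.38 for kidney over heart (adjusted p = 0.840). The 95% intervals, taken from the standard errors with a normal distribution, ran from -0.45 to 1.02 over kidney and from -0.39 to 1.15 over heart. Differences of either sign within them remain compatible with these counts.

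**Figure D1:**
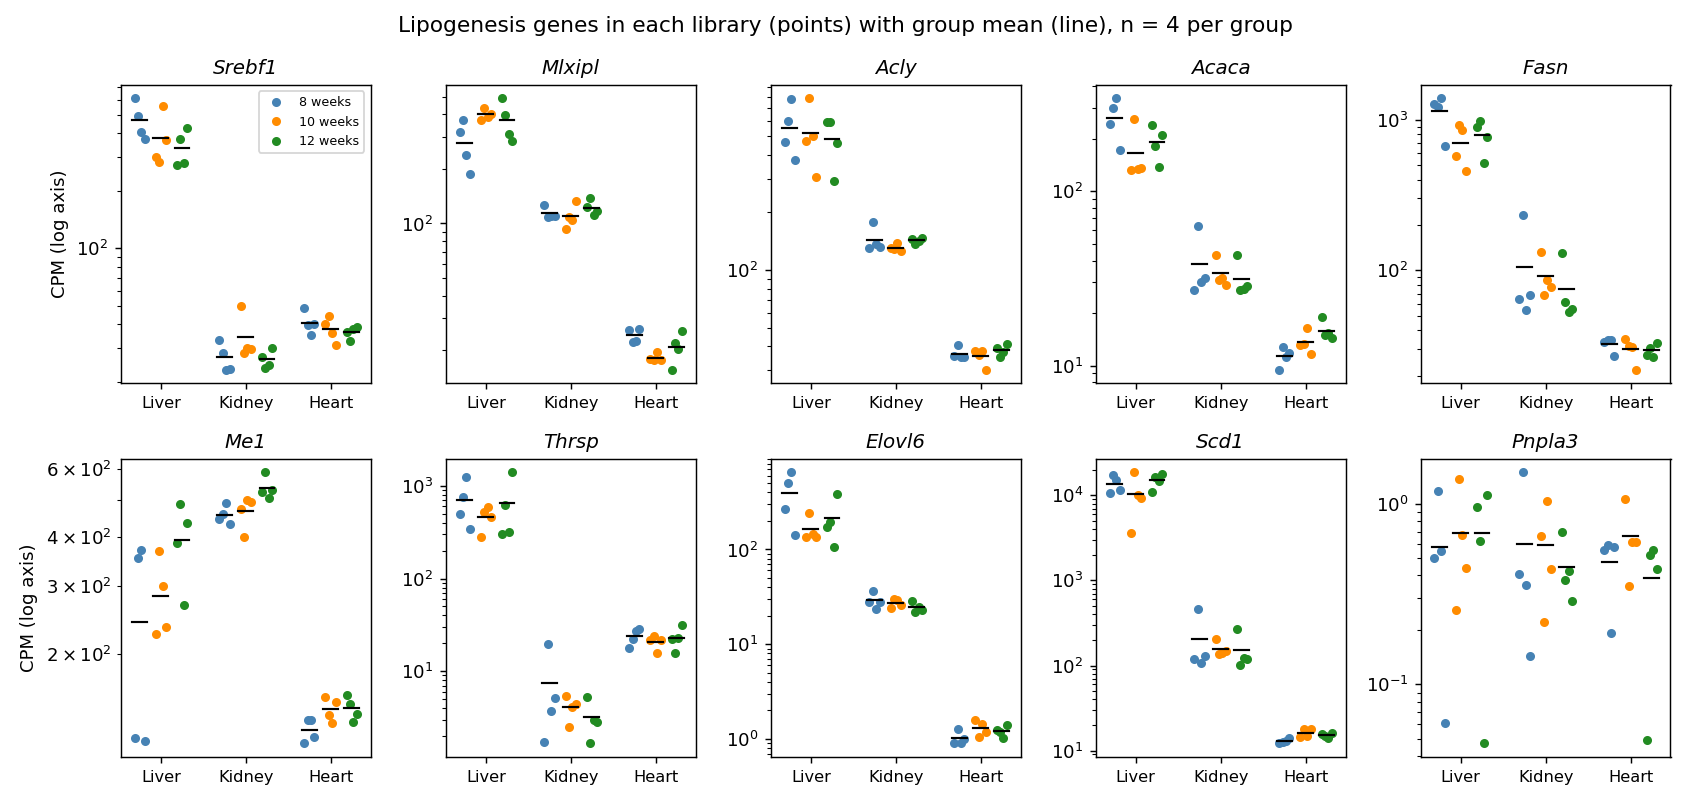
CPM on a log axis for each of the 10 genes in liver, kidney and heart, with a point for each library, coloured by age, and a line at the mean of each group of 4. Scd1 spans from 12.2 CPM in heart to 18680 CPM in liver, Me1 is highest in kidney, Pnpla3 stays near or below 1 CPM in every tissue, and 1 kidney library at 8 weeks stands above its group for Fasn (232 CPM) and Scd1 (458 CPM).

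The comparison of ages asked whether the lipogenic program of the liver changes between late adolescence and young adulthood. In liver, 0 of the 10 genes passed an adjusted p of 0.05 in any of the 3 comparisons of ages, with edgeR's test, DESeq2 and limma-voom alike. Few genes passed at all: 0.239% at 12 against 8 weeks, 0.0204% at 10 against 8 weeks and 0.0545% at 12 against 10 weeks. Unadjusted p-values under 0.05 were found for 1 of the 10 genes at 12 against 8 weeks, for 4 at 10 against 8 weeks and for none at 12 against 10 weeks. Over all 14672 genes tested, 2221, 2100 and 2073 had such a p-value, in the same order. The median log2 difference of the 10 genes at 12 against 8 weeks was -0.16, with 6 lower and 4 higher, and that of all genes was 0.00.

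Among the transcription factors, Srebf1 in liver was 608, 490.4, 409 and 372 CPM at 8 weeks, 302, 283, 555 and 369 CPM at 10 weeks, and 271, 372, 278 and 424 CPM at 12 weeks. The 8-week animals were mostly higher, with animals of both older groups within their range. The log2 difference at 12 against 8 weeks was -0.49 ± 0.23 (unadjusted p = 0.0481, adjusted p = 0.326). Mlxipl went the other way, from 321, 372, 238 and 188 CPM at 8 weeks to 375, 433, 389 and 405 CPM at 10 weeks and 490.3, 399, 314 and 287 CPM at 12 weeks. All 10-week animals lay above all 8-week animals, which was so for 1 of the 10 genes against 9.47% of all genes in that comparison. The log2 differences were 0.51 ± 0.20 at 10 against 8 weeks (adjusted p = 0.280) and 0.41 ± 0.20 at 12 against 8 weeks (adjusted p = 0.367).

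Fasn in liver was 1268, 1220, 1382 and 673 CPM at 8 weeks, 574, 924, 850 and 459 CPM at 10 weeks, and 895, 985, 514 and 766 CPM at 12 weeks. Of the 8-week animals, 3 were above every older animal, and the fourth was among them. The log2 difference at 12 against 8 weeks was -0.53 ± 0.27 (adjusted p = 0.377) and at 10 against 8 weeks -0.70 ± 0.27 (adjusted p = 0.269). Acaca was 245, 302, 341 and 173 CPM at 8 weeks, 132, 260, 135 and 137 CPM at 10 weeks, and 239, 183, 137 and 211 CPM at 12 weeks. Of the 8-week animals, 2 were above every older animal. Its log2 differences were -0.47 ± 0.26 at 12 against 8 weeks (adjusted p = 0.425) and -0.68 ± 0.26 at 10 against 8 weeks (adjusted p = 0.264). Acly, a step upstream, was 463, 598, 779 and 375 CPM at 8 weeks and 594, 595, 292 and 460.1 CPM at 12 weeks, with wide overlap and a difference of -0.20 ± 0.30 (adjusted p = 0.803).

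Elovl6 had the largest difference in size of the 10 genes in liver. It was 269, 499, 654 and 141 CPM at 8 weeks, 136, 246, 145 and 136 CPM at 10 weeks, and 172, 197, 107 and 385 CPM at 12 weeks. At 8 weeks 2 animals were above all older ones and the lowest was among them. The log2 difference was -1.24 ± 0.45 at 10 against 8 weeks (adjusted p = 0.239) and -0.87 ± 0.45 at 12 against 8 weeks (adjusted p = 0.381). Without the filter on low counts the adjusted p at 10 against 8 weeks was 0.0205, where 350 of all 34374 genes passed. Me1 was the member most in the opposite direction, at 121, 354, 372 and 119 CPM at 8 weeks and 386, 488, 267 and 434 CPM at 12 weeks. At 8 weeks its animals fell into a low pair and a high pair, and the difference of 0.70 ± 0.35 did not pass (adjusted p = 0.372).

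The remaining liver genes differed little between ages beside their spread. Scd1 was 10630 to 17510 CPM at 8 weeks, 3643 to 18680 CPM at 10 weeks and 10900 to 17740 CPM at 12 weeks, with a log2 difference of 0.12 ± 0.36 at 12 against 8 weeks (adjusted p = 0.905). Thrsp ranged from 346 to 1240 CPM at 8 weeks and from 305 to 1403 CPM at 12 weeks, with a difference of -0.11 ± 0.48 (adjusted p = 0.936). Pnpla3 differed by 0.21 ± 0.75 (adjusted p = 0.925). The 95% intervals were taken from the standard errors with a normal distribution, which makes them narrower than the test implies. They were -0.58 to 0.82 for Scd1, -1.06 to 0.83 for Thrsp and -1.26 to 1.67 for Pnpla3. A rise or a drop within them remains compatible with these animals.

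**Figure D2:**
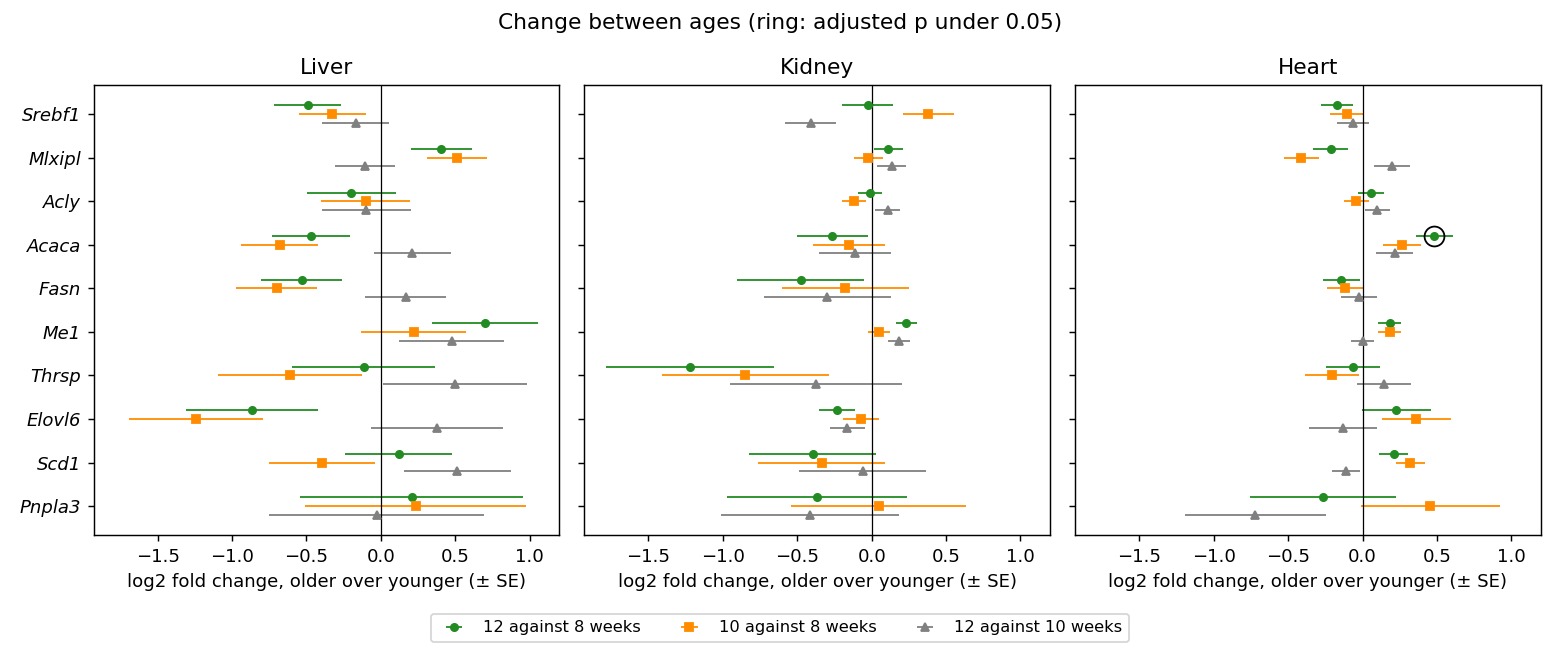
Log2 fold change of the 10 genes between ages (older over younger, with SE as bars) in liver, kidney and heart, for 12 against 8, 10 against 8 and 12 against 10 weeks. The ring marks the one change past an adjusted p of 0.05, Acaca in heart at 12 against 8 weeks (0.48), and the liver points of Elovl6 lie between -1.24 and 0.38.

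The liver levels spread widely between animals of the same age. For the 9 genes with a mean of at least 10 CPM, the standard deviation within ages on the log2 scale was 0.33 for Mlxipl, 0.36 for Srebf1, 0.43 for Acaca, 0.46 for Fasn, 0.51 for Acly, 0.60 for Me1, 0.62 for Scd1, 0.76 for Elovl6 and 0.80 for Thrsp, where the median of 8058 liver genes was 0.16. Each lay above at least 87.5% of those genes, and Thrsp above 98.9%. Some of the same enzymes varied less in the other tissues. Me1 had a spread of 0.11 in kidney and 0.10 in heart, and Scd1 of 0.12 in heart.

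The spread was shared across genes. Of the 8 genes other than the transcription factors, the third animal at 8 weeks was the highest of its group for 6, and the fourth was the lowest for 7. The second animal at 10 weeks was the highest for 7, and the third at 12 weeks the lowest for 6. The fourth liver at 8 weeks and the third at 12 weeks also had the highest hepatocyte marker sums, 155500 and 145000 CPM. The other livers held 88740 to 121000 CPM. The part of this difference in the pattern was not tested. Scd1 showed the widest single gap at 10 weeks, with 3643 CPM in the first animal, 18680 CPM in the second, 10000 CPM in the third and 9346 CPM in the fourth. Over the 12 livers and after removal of age means, 33 of the 36 pairs among the 9 genes had a positive Pearson correlation of log2 CPM, with a median r of 0.50. The closest pairs were Acly with Fasn (r = 0.89), Thrsp with Elovl6 (r = 0.86) and Acly with Acaca (r = 0.86), and the lowest was Mlxipl with Thrsp (r = -0.10). These values describe points that share a library and its scaling, and the pairs were not compared with those of other liver genes.

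Correlations of the enzymes with the factors themselves did not pass a test. With Srebf1, the Pearson r of the 8 other genes lay between -0.09 for Acaca and 0.50 for Thrsp, and with Mlxipl between -0.10 for Thrsp and 0.62 for Pnpla3. None of these 16 relations passed an adjusted p of 0.05 in an exact permutation test within ages (two-sided, n = 12, adjusted p = 0.448 to 0.899 for Pearson's r), and Spearman's rho gave none either (adjusted p = 0.488 to 0.973). For Mlxipl with Pnpla3, rho was 0.55 and r was 0.30 without the 2 livers farthest from the median of Mlxipl, but 0.86 without replicate 4 at 12 weeks (adjusted p = 0.0232, exact permutation test). For Srebf1 with Thrsp, rho was 0.53 and r was 0.75 without the 2 farthest livers (p = 0.0521, exact permutation test).

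Among 8057 liver genes, those most like Fasn over the 12 animals were Txnip (r = 0.94), a known glucose-responsive ChREBP target, Acly (r = 0.89), Prkce (r = 0.89), Pcx (r = 0.87), the pyruvate carboxylase, and Unk (r = 0.85). Those most like Srebf1 were Dctn1, Dpm2, Gcn1 and Mid1ip1 (each r = 0.89) and Golga7 (r = 0.88). Mid1ip1 is the relative of Thrsp that promotes the polymerisation of acetyl-CoA carboxylase. These are the top of a ranking over many genes with 12 points, given as a description.

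**Figure D3:**
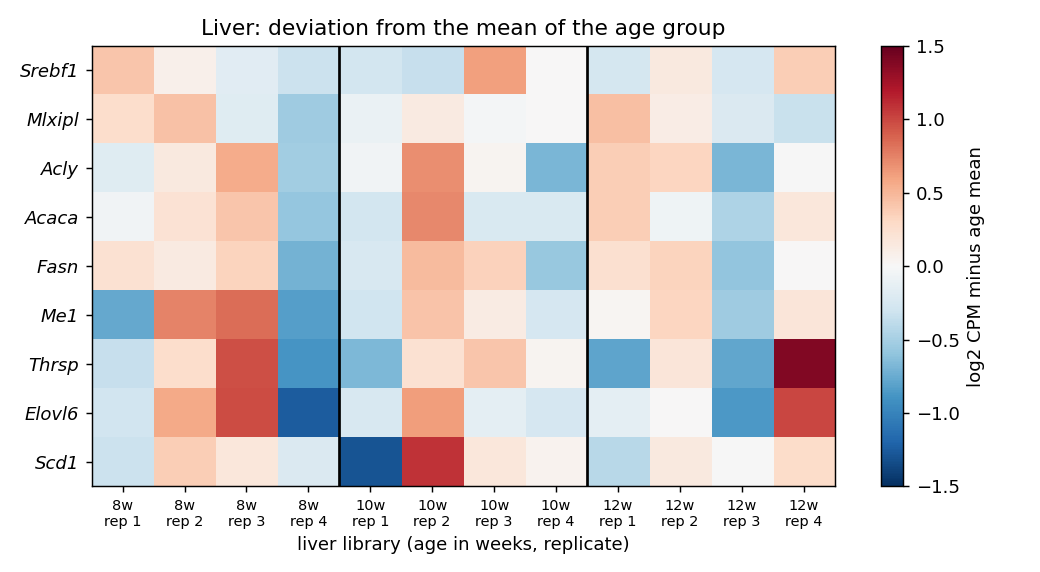
Log2 CPM of 9 lipogenesis genes in each of the 12 liver libraries minus the mean of its age group, in colour from -1.5 to 1.5. The columns of the fourth animal at 8 weeks and the third at 12 weeks are blue for all 9 genes (lowest of the group for 8 and 5 of them), as is the first at 10 weeks (lowest for 5), and the second animal at 10 weeks is red for 8 (highest for 7).

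In kidney, 0 of the 10 genes passed at 12 against 8 weeks, where 0.0567% of 17649 genes did, nor at 10 against 8 weeks (0.929%) or 12 against 10 weeks (0.482%). DESeq2 and limma-voom gave 0 as well. Unadjusted p-values under 0.05 in edgeR's test were found for 2, 1 and 2 of the 10 genes, beside 2059, 2917 and 2894 of all genes tested. The clearest in its samples was Me1, at 447, 459, 492 and 434 CPM at 8 weeks and 523, 589, 505 and 528 CPM at 12 weeks. All 12-week kidneys were above all 8-week kidneys, as for 6.48% of all genes, and the log2 difference was 0.23 ± 0.07 (unadjusted p = 0.00643, adjusted p = 0.273). Mlxipl, at 94 to 138 CPM over all kidneys, differed by 0.11 ± 0.10 (adjusted p = 0.695), and Acly by -0.01 ± 0.08 (adjusted p = 0.979). Srebf1 differed by -0.03 ± 0.17 (adjusted p = 0.972), Elovl6 by -0.23 ± 0.12 (adjusted p = 0.483) and Pnpla3 by -0.37 ± 0.60 (adjusted p = 0.857).

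The kidney values of Fasn, Scd1, Acaca and Thrsp were highest in a few libraries. Fasn was 64.7, 232, 55.0 and 69.1 CPM at 8 weeks, 133, 68.5, 85.8 and 78.0 CPM at 10 weeks, and 131, 61.7, 52.8 and 55.2 CPM at 12 weeks. Scd1 was 121, 458, 106 and 128 CPM at 8 weeks, 206, 136, 142 and 150 CPM at 10 weeks, and 271, 101, 123 and 120 CPM at 12 weeks. The high library of each age was the same for both genes, replicate 2 at 8 weeks and replicate 1 at 10 and at 12 weeks. The spread of Fasn and Scd1 within ages, 0.70 on the log2 scale for each, was above 99.8% of kidney genes.

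Those 3 libraries also held the most RNA of adipocyte markers. The summed level of Adipoq, Plin1, Cfd, Lep, Retn, Cidec, Acvr1c, Ucp1 and Cidea was 43.5 CPM in replicate 2 at 8 weeks, 19.2 CPM in replicate 1 at 10 weeks and 19.1 CPM in replicate 1 at 12 weeks, and it was 0.236 to 9.44 CPM in the 9 other kidneys. In the first of these, Ucp1, the uncoupling protein of brown fat, was 16.2 CPM, Cidea 7.60 CPM, Plin1 7.31 CPM and Cfd 6.74 CPM, while Adipoq was 1.01 CPM and Lep 0.030 CPM. In the kidney with the lowest sum, Adipoq, Cfd and Acvr1c were at 0.

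Over the 12 kidneys, with age means removed, 4 of the 10 genes followed the summed adipocyte markers past an adjusted p of 0.05 (exact permutation within ages, two-sided, adjusted over 20 relations in kidney and heart). They were Scd1 (r = 0.94, rho = 0.84, adjusted p = 0.00724), Fasn (r = 0.93, rho = 0.83, adjusted p = 0.0140), Thrsp (r = 0.89, rho = 0.86, adjusted p = 0.0140) and Acaca (r = 0.91, rho = 0.77, adjusted p = 0.0141), by an exact permutation test. The relations rested in part on the extremes. Without the 2 kidneys farthest from the median of the sum, r was 0.67, 0.61, 0.67 and 0.55, and none passed the adjusted p. Scd1 alone passed without replicate 2 at 8 weeks or without replicate 1 at 12 weeks (r = 0.89 and 0.91, adjusted p = 0.0290 for each, exact permutation test), and Scd1 and Fasn passed without replicate 4 at 8 weeks. The other genes did not pass, among them Me1 (r = -0.03), Mlxipl (r = -0.24) and Srebf1 (r = 0.30).

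Without the 3 kidneys highest in adipocyte markers, an alternative added after the values had been seen, the differences at 12 against 8 weeks shrank for these genes. That of Fasn went from -0.48 ± 0.43 (adjusted p = 0.710) to -0.16 ± 0.10 (adjusted p = 0.624), and that of Scd1 from -0.40 ± 0.43 (adjusted p = 0.765) to -0.04 ± 0.09 (adjusted p = 0.898). Acaca went from -0.27 ± 0.24 (adjusted p = 0.711) to -0.10 ± 0.07 (adjusted p = 0.648). Thrsp had the largest difference in kidney, at -1.22 ± 0.57 (adjusted p = 0.427). Without the filter on low counts its adjusted p was 0.00037, where 513 of all 42077 genes passed. Without the 3 kidneys its difference was -0.53 ± 0.37 (adjusted p = 0.643). The value of Me1 was hardly moved, at 0.24 ± 0.10 (adjusted p = 0.431).

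**Figure D4:**
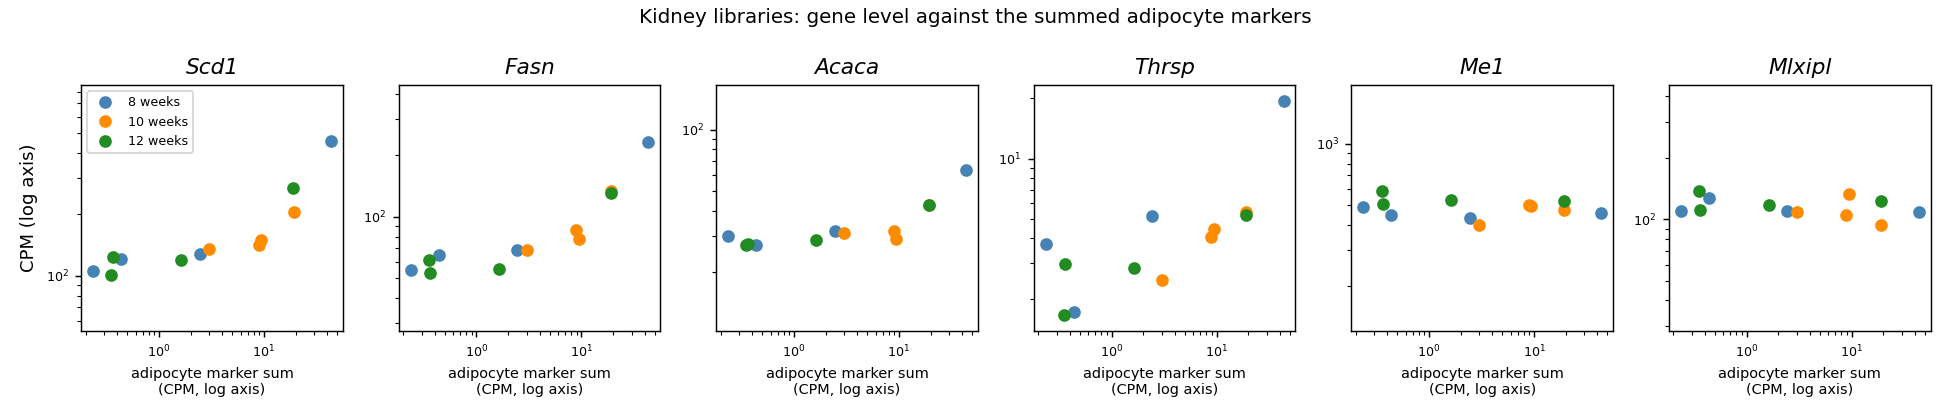
CPM of 6 genes against the summed CPM of 9 adipocyte markers in the 12 kidney libraries, both on log axes, with points coloured by age. Scd1, Fasn, Acaca and Thrsp are highest in the library with the highest sum (43.5 CPM), where Scd1 reaches 458 CPM, while Me1 and Mlxipl stay level.

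In heart, where the genes were low, 1 of the 10 passed at 12 against 8 weeks, where 4.56% of 15137 genes did and 2.36% were higher. This was Acaca, at 9.47, 12.7, 11.2 and 11.8 CPM at 8 weeks, 13.1, 13.2, 16.5 and 11.6 CPM at 10 weeks, and 18.9, 14.9, 15.3 and 14.5 CPM at 12 weeks. Every 12-week heart was above every 8-week heart, which held for 12.7% of all genes and for none of the other 9 genes. Acaca rose by 0.48 ± 0.12 on the log2 scale (adjusted p = 0.0391). In heart malonyl-CoA is better known as a brake on the entry of fatty acids into mitochondria than as a building block, and Acacb is the carboxylase usually named for it. The call passed with RLE factors, DESeq2 and limma-voom (adjusted p = 0.0405, 0.00983 and 0.0410), and it was lost with the counts of the first strand (adjusted p = 0.168) and without any one 8-week heart or any one of replicates 1, 2 and 3 at 12 weeks (adjusted p = 0.0589 to 0.120), whereas it held without replicate 4 at 12 weeks (adjusted p = 0.0230).

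The other heart genes did not pass at 12 against 8 weeks. Me1 differed by 0.18 ± 0.08 (adjusted p = 0.172), Scd1 by 0.21 ± 0.10 (adjusted p = 0.203), Mlxipl by -0.21 ± 0.12 (adjusted p = 0.279) and Srebf1 by -0.17 ± 0.11 (adjusted p = 0.353). Fasn differed by -0.14 ± 0.12 (adjusted p = 0.508), Acly by 0.06 ± 0.09 (adjusted p = 0.734) and Thrsp by -0.06 ± 0.18 (adjusted p = 0.870). Elovl6 and Pnpla3, both at about 1 CPM or below, differed by 0.23 ± 0.23 (adjusted p = 0.586) and -0.27 ± 0.49 (adjusted p = 0.785).

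At 10 against 8 weeks in heart 0 of the 10 genes passed (1.06% of all genes), and DESeq2 passed 1, Mlxipl. An unadjusted p under 0.05 in edgeR's test was found for 3 of the 10, beside 2386 of all 15137 genes. For 2 of the 10 genes the groups did not overlap, against 9.74% of all genes. Mlxipl was 25.8, 22.0, 22.3 and 26.2 CPM at 8 weeks and 17.8, 17.6, 19.5 and 17.6 CPM at 10 weeks, a difference of -0.41 ± 0.12 (adjusted p = 0.106, and 0.0473 with DESeq2). All 10-week hearts were below all 8-week hearts. Scd1 was 12.2, 12.7, 12.9 and 14.2 CPM at 8 weeks and 14.4, 17.8, 14.9 and 17.9 CPM at 10 weeks, a difference of 0.32 ± 0.10 (adjusted p = 0.123). The highest Scd1 values were in replicates 2 and 4 at 10 weeks, which also held the most hepatocyte RNA, with hepatocyte markers up to 23.9 CPM in all against 0.0825 to 0.288 CPM at 8 weeks. Without those replicates the Scd1 difference was 0.17 ± 0.11 (adjusted p = 0.563), and the part of the hepatocyte RNA in it was not tested. At 12 against 10 weeks 0 of the 10 passed, where 0.0396% of all genes did. None of the 10 had an unadjusted p under 0.05, beside 1776 of all genes. Over the hearts none of the 10 genes followed the summed adipocyte markers past the adjusted p. That sum of 18.5 to 27.1 CPM was almost all Cidea, so it could not show whether the genes followed adipocyte RNA in heart.

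Whether the change from 8 to 12 weeks differed between tissues was tested directly in a model of all 36 libraries. None of the 10 genes passed for liver minus kidney (0.304% of all genes), liver minus heart (4.16%) or kidney minus heart (0.112%). An unadjusted p under 0.05 was found for 0, 2 and 1 of them, beside 2201, 3629 and 2198 of all 19716 genes. The lowest adjusted p-values were those of Acaca, at -0.95 ± 0.34 for liver minus heart (adjusted p = 0.109), and of Mlxipl, at 0.62 ± 0.23 (adjusted p = 0.113). DESeq2 and limma-voom gave 0 in each, and without the filter on low counts 1, 3 and 2 genes passed, beside 525, 913 and 144 of all 47683 genes. Mlxipl passed for liver minus heart without liver replicate 2 at 8 weeks (adjusted p = 0.0425) or replicate 4 at 12 weeks (adjusted p = 0.0417).

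Other genes of the pathway were taken from lists by function. At 12 against 8 weeks none passed in liver or kidney. The lists held 11 regulators of SREBP and LXR, 9 genes of citrate, acetyl-CoA and NADPH supply and 7 partners of the carboxylase and synthase. They also held 15 elongases and desaturases, 12 genes of glucose and fructose input and 8 of glycerolipid synthesis. Of these, 11, 8, 6, 13, 12 and 8 were tested in liver and 11, 9, 6, 12, 10 and 8 in kidney. The largest liver differences were those of Mogat1 (2.44 ± 0.60, adjusted p = 0.105, edgeR's test) and Elovl3 (1.45 ± 0.60, adjusted p = 0.283). Mogat1 alone of these lists passed for liver minus kidney (2.33 ± 0.53, adjusted p = 0.0425), as did 0.304% of all genes. In liver, 11 of the 13 elongases and desaturases tested had a positive difference, with a median of 0.26 on the log2 scale beside 0.00 for all genes. Of 10 fasting response genes and 13 clock genes tested in liver, none passed.

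In heart, where 4.56% of all genes passed at 12 against 8 weeks and 2.36% were higher, several of these genes passed. In the glucose list, with 8 genes tested, Txnip and Klf10 rose and none fell. Txnip went from 263 ± 87.1 to 491 ± 56.8 CPM (SD, n = 4), and Klf10 from 11.6 ± 1.91 to 20.1 ± 1.96 CPM. Their log2 changes were 0.89 ± 0.20 (adjusted p = 0.0214) and 0.79 ± 0.18 (adjusted p = 0.0240) in edgeR's test. Of the regulators 2 of 11 fell and none rose. Scap, the escort of SREBP to the Golgi, fell by 0.36 ± 0.09 (adjusted p = 0.0365), and Nr1h2, the LXR beta receptor, fell by 0.37 ± 0.08 (adjusted p = 0.0204). Agpat2, an acyltransferase of glycerolipid synthesis, fell by 0.35 ± 0.09 (adjusted p = 0.0355), 1 of 7 tested in that list. In the fasting response list Pdk4, the kinase that holds back pyruvate oxidation, rose by 0.79 ± 0.16 (adjusted p = 0.0150), and Angptl4, an inhibitor of lipoprotein lipase, rose by 1.28 ± 0.32 (adjusted p = 0.0343), 2 of 6 tested. Of the 5 cardiomyocyte markers tested, 1 passed. This was Ryr2, the calcium release channel, which rose by 0.48 ± 0.10 (adjusted p = 0.0156). Over the 5 markers 3 differences were positive and 2 negative, with a median of 0.10 on the log2 scale. Pdk4 passed without any single heart, while the other 7 genes named here each lost the call without at least 1 (highest adjusted p 0.0531 for Ryr2 to 0.117 for Agpat2).

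Between tissues, the genes of each list called higher or lower in liver were counted, and the lists were not tested against each other or against all genes. Over kidney, 17.2% of all genes were called higher and 6026 of 19716 lower. Of 14 elongases and desaturases 8 were called higher and 3 lower, and of 11 regulators 5 were higher and none lower. Of 6 partners of the carboxylase and synthase 4 were higher and none lower. Of 12 genes of glucose and fructose input 6 were higher and 1 lower, and of 8 genes of glycerolipid synthesis 5 were higher and 1 lower. For the supply of citrate, acetyl-CoA and NADPH, 1 of 9 genes was called higher in liver (Slc25a1, the mitochondrial citrate carrier, by 1.83 on the log2 scale) and 3 lower. The latter were G6pdx (-2.16), the first enzyme of the pentose phosphate pathway, and Me2 (-1.42) and Me3 (-8.08), the mitochondrial malic enzymes. Over heart, 26.5% of all genes were called higher and 5668 of 19716 lower. The counts in the same order were 9 higher and 4 lower, 7 and none, 3 and 1, 10 and 1, 4 and none, and for supply 4 and 2. The partner called lower than in heart was Acacb (-1.05), the carboxylase isoform of the mitochondrial surface. The median log2 difference ran over kidney from 0.0013 for supply to 1.79 for glycerolipid synthesis, and over heart from 0.96 for supply to 5.94 for glucose and fructose input.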

How the data were processed

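Poly(A) RNA of liver, kidney and heart of 8-, 10- and 12-week-old mice was sequenced as paired reads, with 4 libraries per group. The authors checked reads with FastQC v0.11.9, trimmed them with cutadapt v4.2 and aligned them to GRCm39 (Ensembl 113) with STAR v2.7.11b. The deposited counts are read pairs per gene that match 1 place and 1 gene, without strand, and 21.2% to 31.4% of the pairs per library fell on no single gene and stayed out of the totals. First-strand counts were 49.8% to 50.2% of both strands. No columns of other series were present (0).

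From these counts, CPM, TMM factors and edgeR 4.0.16 quasi-likelihood tests were computed (R 4.3.3). Within a tissue, a mean for each age was fitted over 12 libraries, on genes with a mean count of at least 10 and at least 2 samples above 0 in 1 age. Tissues and interactions were tested over all 36 libraries. The standard errors (SE) were derived from the test, as the absolute log2 difference divided by the square root of its F statistic. Benjamini-Hochberg adjustment ran over every gene kept. The common coefficient of variation was 0.206 in liver, 0.113 in kidney and 0.119 in heart. Alternatives were RLE factors, DESeq2 1.42.0, limma-voom 3.58.1, no filter, 2 ages only, first-strand counts, a replicate block, library totals and each library left out. The scripts were tested on simulated data. Symbols and positions came from GENCODE M39 (Ensembl 116). Log2 CPM used a prior count of 2, and the summed adipocyte markers a pseudocount of 0.1.

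All 10 genes were named in every tissue at 12 against 8 weeks and between tissues, and in other comparisons those past the adjusted p. From other lists, up to 4 genes past the adjusted p at 12 against 8 weeks were named per list and tissue. Of these, 1 is not reported here. All adipocyte markers were named, and the 5 genes most correlated with Srebf1 and with Fasn in liver. Genes described outside this rule, such as those of liver and heart at 10 against 8 weeks, were chosen after their values were seen. The genes and lists were chosen with earlier results of these data known. Replicate numbers did not pair the ages (correlations of deviations -0.26 to 0.17). Across tissues they were -0.01 to 0.26 and not all above 0.1, so the main tests have no block. The ages are separate mice by the study's methods. Each age group held fewer mice than libraries over the tissues, so some mice must have given more than 1 tissue. Which libraries share a mouse was not given. The tests over all 36 libraries treat them as independent, and the replicate block is the alternative to that.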

Additional observations from a re-analysis of the deposited data

Results flagged for a closer look

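In 15 of 90 groups of 4 libraries, the highest or lowest library stood apart from the other 3 by more than 0.829 of the range of the group, where chance flags about 1 in 20 groups. Of these, 9 were in kidney, and 8 of the 9 were high values in the replicates with the most adipocyte marker RNA. At 8 weeks kidney replicate 2 stood above its group for Scd1 (458 CPM, others 106 to 128 CPM), Fasn (232 CPM, others 55.0 to 69.1 CPM), Acaca (63.3 CPM, others 27.0 to 32.0 CPM) and Acly (178 CPM, others 130.4 to 136 CPM). At 12 weeks kidney replicate 1 stood above its group for Scd1 (271 CPM, others 101 to 123 CPM), Fasn (131 CPM, others 52.8 to 61.7 CPM) and Acaca (42.8 CPM, others 27.2 to 28.7 CPM). At 10 weeks kidney replicate 1 was high for Srebf1 (49.7 CPM, others 28.4 to 30.0 CPM), and at 8 weeks kidney replicate 1 for Mlxipl (126 CPM, others 108 to 110.2 CPM).

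In liver, replicate 2 at 10 weeks stood above its group for Acaca (259.6 CPM, others 132 to 137 CPM) and Elovl6 (246 CPM, others 136 to 145 CPM). In heart, replicate 2 at 8 weeks was high for Acly (40.4 CPM, others 35.1 to 35.5 CPM) and replicate 3 at 10 weeks for Mlxipl (19.5 CPM, others 17.6 to 17.8 CPM). At 8 weeks replicate 4 was low for Fasn (27.2 CPM, others 33.7 to 34.5 CPM) and replicate 3 for Pnpla3 (0.192 CPM, others 0.554 to 0.587 CPM).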

How the results depend on the processing

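The counts of members called between tissues did not move under the alternatives run, except liver against heart with library totals (8, main test 9), and 0 members passed in liver at 12 against 8 and 12 against 10 weeks under each of them. Without the filter on low counts, 1 member passed in liver at 10 against 8 weeks (Elovl6), 1 in kidney at 12 against 8 weeks (Thrsp), 2 at 10 against 8 weeks (Srebf1 and Thrsp) and 1 at 12 against 10 weeks (Srebf1), 1 in heart at 10 against 8 weeks (Mlxipl), and 1, 3 and 2 for the interactions of liver minus kidney, liver minus heart and kidney minus heart. In that setting 350 of all 34374 genes passed in liver at 10 against 8 weeks (main test 3 of 14672). In kidney 513, 1005 and 938 of 42077 passed, in the order above, and in heart 798 of 36652. For the interactions 525, 913 and 144 of 47683 passed. DESeq2 and the fit of 2 ages only each passed 1 in heart at 10 against 8 weeks (Mlxipl). First-strand counts passed 0 in heart at 12 against 8 weeks. The 4 relations with adipocyte markers became 0 without the 2 farthest samples. The causes were not tested.

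Leaving out each library in turn gave 0 to 1 members in heart at 12 against 8 weeks, 0 to 1 for liver minus heart, 0 to 1 relations with the factors in liver and 1 to 4 relations with adipocyte markers. At 12 against 8 weeks, log2 differences that did not pass changed sign. In liver they ran from -0.35 to 0.0187 for Acly, -0.80 to 0.30 for Thrsp and -0.14 to 0.85 for Pnpla3. In kidney they ran from -0.10 to 0.0889 for Srebf1, -0.052 to 0.11 for Acly, -0.45 to 0.0908 for Acaca, -0.89 to 0.26 for Fasn, -0.82 to 0.39 for Scd1 and -0.71 to 0.61 for Pnpla3, and the positive ends of Acly, Acaca, Fasn, Scd1 and Pnpla3 were those without replicate 2 at 8 weeks. In heart they ran from -0.24 to 0.084 for Thrsp and -0.51 to 0.0369 for Pnpla3, and for kidney over heart from -0.24 to 0.20 for Pnpla3.

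Other changes of sign were Srebf1 in kidney at 12 against 8 weeks with first-strand counts (0.0261), Acly there without the 3 kidneys high in adipocyte markers (0.0886), and Pnpla3 there with limma-voom (0.10), first-strand counts (0.0381) and without the 3 kidneys (0.29). With library totals Pnpla3 was -0.50 for liver over kidney and Srebf1 0.13 for kidney over heart. Pnpla3 for kidney over heart was -0.0046 with limma-voom, -0.036 with the replicate block and -0.47 without the 3 kidneys and 2 hearts. With library totals, 2116 genes were called higher and 9349 lower in liver than in kidney (main test 3396 and 6026), and 8086 higher and 3075 lower in kidney than in heart (6064 and 4314).

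Over all genes, 35, 10 and 691 passed at 12 against 8 weeks in liver, kidney and heart, against 423, 130 and 1245 with DESeq2 and 330, 513 and 1133 without the filter. At 10 against 8 weeks 3, 164 and 161 passed, against 356, 664 and 366 with DESeq2 and 350, 1005 and 798 without the filter, and at 12 against 10 weeks 8, 85 and 6, against 486, 657 and 54 and 271, 938 and 308. For the interactions, 60 passed for liver minus kidney, 821 for liver minus heart and 22 for kidney minus heart. With DESeq2 292, 1340 and 218 passed, without the filter 525, 913 and 144, and with limma-voom 52 for the last. Limma-voom passed 107 in heart at 10 against 8 weeks. The fit of 2 ages only passed 23 in liver at 12 against 8, 7 at 10 against 8 and 33 at 12 against 10 weeks, and 24 in kidney at 12 against 10 weeks, and first-strand counts passed 9 in liver at 10 against 8 weeks. Without the filter 14656 genes were called between liver and kidney (main 9422) and 16666 between kidney and heart (10378). Without the 3 kidneys, 2, 9 and 11 passed in kidney at 12 against 8, 10 against 8 and 12 against 10 weeks. Without the 2 hearts, 1 passed in heart at 12 against 10 weeks, and without both sets 2, 522 and 11 for the interactions.

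The replicate block left 0 members in liver and kidney, 1 in heart at 12 against 8 weeks, and 8, 9 and 8 between tissues, and changed no count of members. Over all genes it passed 25 in liver and 4 in kidney at 12 against 8 weeks, 5 and 4 in liver at 10 against 8 and 12 against 10 weeks, 15 in heart at 12 against 10 weeks and 105 for liver minus kidney. Each library correlated best with its own number in 12 of 12 cases between liver and kidney, 8 of 12 between liver and heart and 10 of 12 between kidney and heart. This hints that equal numbers mark the same mouse. The study's numbers of mice require some sharing between tissues, but its methods do not say which libraries share a mouse.

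Genes near or below 1 CPM (Pnpla3 in each tissue, Elovl6 in heart) are limited by counts, and liver had the largest common coefficient of variation of the 3 tissues.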
